A study of Mus musculus with 93 samples.

Results

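The Notch receptors, their ligands and the Mastermind coactivators were described as 10 genes, taken by name from the RNA count tables: the 4 receptors Notch1, Notch2, Notch3 and Notch4, the 4 ligands Dll1, Dll3, Jag1 and Jag2, and the 2 coactivators Maml1 and Maml2. They are 10 of the 33924 gene names counted, and all 10 were found. RNA-seq was analysed in 12 of the 93 samples of the series, all from mouse embryonic stem (ES) cells of the R1 line kept in serum with leukaemia inhibitory factor. Set 1 holds 3 libraries of cells with the I53A point mutation in Ring1b and 3 libraries of wild type (WT) cells. Ring1b is the enzyme subunit by which Polycomb repressive complex 1 attaches ubiquitin to histone H2A, and I53A lies in its catalytic RING domain. Set 2 holds 3 libraries labelled H1b/c/d/e-QKO, a quadruple knockout of linker histone genes, and 3 WT libraries of its own. The genotype is the only stated difference within each set. The sources used here give neither the number of clones per genotype nor whether replicates are separate cultures, so the p-values below measure spread among libraries that may be technical repeats.

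Notch receptors are single-pass membrane proteins that bind Delta or Jagged ligands on a neighbouring cell. Binding exposes the receptor to ADAM proteases and then to gamma-secretase, which frees its intracellular domain to enter the nucleus. There it joins the DNA-binding protein RBPJ and a Mastermind protein, and target genes such as those of the Hes and Hey families are switched on. In ES cells the pathway is known for its role when cells leave the pluripotent state, not for upkeep of that state.

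Total counts ran from 12585621 to 23378930 per library. The gene of Ring1b, Rnf2, stood at 98, 95.7 and 85.7 CPM (counts relative to the scaled library total) in I53A and at 192, 188 and 177 CPM in WT. A point mutation need not change the RNA level, so this does not check the I53A label. The linker histone genes behind the QKO label were also examined, and none that could be tested was called lower in QKO. Hist1h1b had 62, 53 and 72 counts there and 4, 9 and 2 counts in WT, and was called higher. Hist1h1c had 174, 129 and 202 counts there and 143, 173 and 205 counts in WT, and was not called. Hist1h1d, with 27 counts over each group, was not called either. Hist1h1e, with 22 counts over QKO and 8 over WT, could not be tested. These transcripts do not show the loss that the label names, though most of them are at low counts. The sources used here do not give which parts of the genes were deleted. Every direction below is therefore one of "libraries labelled QKO". All 8 ES cell markers, among them Pou5f1, Nanog and Sox2, had counts in every group. Their summed level was 4660 to 5350 CPM in I53A and 5610 to 6490 CPM in WT. Of the 8, 4 were called lower in I53A (Nanog, Sox2, Zfp42 and Esrrb) and 1 higher (Tdgf1, log2 fold change 0.99). In set 2 their sum was 7240 to 7350 CPM in the libraries labelled QKO and 6370 to 6450 CPM in WT, with 5 called higher and 3 lower. Markers of other lineages moved with the groups too. The summed level of 14 primitive endoderm markers was 4110 to 4240 CPM in I53A and 494 to 528 CPM in WT, with 14 of 14 called higher. In set 2 that sum was 434 to 442 CPM in the libraries labelled QKO and 352 to 374 CPM in WT. Of the 12 markers tested there, 6 were called higher and 1, Lamb1, lower, and neither Gata4 nor Gata6 was called. Sparc alone stood at 157 ± 6.77 CPM in QKO and 96.2 ± 1.66 CPM in WT. Endothelial markers, a cell type in which Notch4 is well known, summed to 114 to 122 CPM in I53A and 144 to 165 CPM in WT of set 1, and to 125 to 132 CPM in the libraries labelled QKO and 77 to 84.8 CPM in WT of set 2, with all 8 detected in every group. Pecam1 alone made up most of these sums, at 77.4 ± 4.78 CPM in I53A and 124 ± 12.4 CPM in WT, and at 121 ± 3.86 CPM in QKO and 71.4 ± 4.06 CPM in WT (SD, n = 3 each). Of the 6 endothelial markers tested in I53A, Kdr, Cdh5 and Esam were called higher and Pecam1 and Tek lower, and the median log2 fold change of 1.61 has the opposite sign to the change of the sum. Of the 6 tested in set 2, Pecam1 was called higher and Tek lower in QKO (log2 fold change 0.76 and -0.93), and 4 were not called. The 8 neural markers counted summed to 122 to 141 CPM in I53A and 102 to 122 CPM in WT, and to 183 to 184 CPM in QKO and 97.6 to 105 CPM in WT, where Neurog1 was at 0. Tubb3 made up most of these sums, at 98.5 CPM in I53A and 98 CPM in WT, and at 157 CPM in QKO and 88 CPM in WT. In each set 2 neural markers were called higher and 1, Pax6, lower (log2 fold change -1.83 in I53A and -0.88 in QKO). Of 10 fibroblast markers, Dcn and Lum were at 0 in both groups of set 2, and the sums were 61.3 to 67.5 CPM in I53A, 26.3 to 28.1 CPM in WT of set 1, 41.7 to 42.8 CPM in QKO and 22.9 to 23.6 CPM in WT of set 2. Thy1 was the largest part, at 31.9 CPM in I53A and 15.6 CPM in WT, and at 23.5 CPM in QKO and 13 CPM in WT. Of the 5 fibroblast markers tested in each set, 4 were called higher in I53A and 3 in QKO, and none lower. The part of these markers in the results on Notch genes was not tested. In bulk RNA, fewer cells of a type and less RNA per cell cannot be told apart.

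The members lie on 7 chromosomes of the mm9 build. Notch1 (chromosome 2, 26313423 to 26372183) and Jag1 (chromosome 2, 136907192 to 136942380) are on the minus strand, as are Notch3 (chromosome 17, 32257765 to 32303825), Dll1 (chromosome 17, 15504318 to 15513836), Dll3 (chromosome 7, 29076673 to 29087257), Jag2 (chromosome 12, 114146801 to 114167706) and Maml1 (chromosome 11, 50069136 to 50105838). The plus strand carries Notch2 (chromosome 3, 97817461 to 97954290), Notch4 (chromosome 17, 34701213 to 34725448) and Maml2 (chromosome 9, 13424434 to 13513832). Counts are over exons, and 4 members share exonic bases with another annotated gene. For Dll1 the shared stretch with the opposite-strand gene A930024N18Rik is 867 bases, or 20.5% of its counted exons. Fragments were counted without strand and those falling on more than 1 gene were not assigned, so part of the Dll1 signal can be missing. For Notch1 the shared stretches are 7.5% and 2.9% of the counted exons, for Notch3 6.1% and for Maml2 1.7%. The overlapping genes themselves reached at most 21 counts in any library.

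Promoters are shown for 5 members on which the results turn: Notch3, the receptor that fell in both comparisons, Notch4, the receptor whose promoter has the fewest CpG dinucleotides, and Dll3, Jag1 and Jag2, the ligands called in set 2. Each is the 250 bases before the RefSeq transcript start on the strand of the gene (GRCm38.p6, coordinates of that build), 5′ to 3′, with CpG dinucleotides in capitals. CpG-dense promoters are the places at which Polycomb complexes are generally found in mouse ES cells. The windows are chr17:32166891-32167140 for Notch3, chr17:34564045-34564294 for Notch4, chr7:28301786-28302035 for Dll3, chr2:137116521-137116770 for Jag1 and chr12:112929496-112929745 for Jag2, of which that of Notch4 is on the plus strand and the others on the minus strand.
Notch3: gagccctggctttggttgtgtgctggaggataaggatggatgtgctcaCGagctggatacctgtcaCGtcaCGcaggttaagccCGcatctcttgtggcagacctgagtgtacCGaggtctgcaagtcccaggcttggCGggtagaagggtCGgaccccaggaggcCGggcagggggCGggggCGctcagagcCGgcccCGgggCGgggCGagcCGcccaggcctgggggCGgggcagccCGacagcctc
Notch4: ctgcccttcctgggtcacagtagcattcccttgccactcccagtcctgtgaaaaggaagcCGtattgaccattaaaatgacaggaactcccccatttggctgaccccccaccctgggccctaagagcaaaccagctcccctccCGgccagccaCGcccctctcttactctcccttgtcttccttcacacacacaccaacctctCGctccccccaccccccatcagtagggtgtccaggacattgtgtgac
Dll3: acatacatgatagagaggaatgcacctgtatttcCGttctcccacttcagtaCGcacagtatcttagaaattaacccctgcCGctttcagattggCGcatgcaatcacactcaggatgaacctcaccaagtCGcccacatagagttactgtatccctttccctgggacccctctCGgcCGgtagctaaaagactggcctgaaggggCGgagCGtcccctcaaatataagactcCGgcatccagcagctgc
Jag1: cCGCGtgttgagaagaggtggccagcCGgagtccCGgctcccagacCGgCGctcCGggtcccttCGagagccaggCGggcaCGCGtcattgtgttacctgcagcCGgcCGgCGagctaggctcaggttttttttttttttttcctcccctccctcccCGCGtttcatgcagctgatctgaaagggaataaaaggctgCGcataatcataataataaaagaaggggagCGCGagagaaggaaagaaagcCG
Jag2: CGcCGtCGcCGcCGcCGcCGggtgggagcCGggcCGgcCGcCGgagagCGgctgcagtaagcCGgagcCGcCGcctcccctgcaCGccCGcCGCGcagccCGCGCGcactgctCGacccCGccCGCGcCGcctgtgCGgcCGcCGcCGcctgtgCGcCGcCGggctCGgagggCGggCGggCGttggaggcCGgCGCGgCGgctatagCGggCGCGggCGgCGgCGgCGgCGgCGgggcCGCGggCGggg

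Within these windows Jag2 has 54 CpG dinucleotides, Jag1 20, Notch3 17, Dll3 10 and Notch4 4, and the median over all 32851 promoter windows of the same length is 6. The other receptors have 16 (Notch1) and 34 (Notch2). All 10 members have a RefSeq window, and Dll1 and Maml2 have 2 each. Of these 12 windows, 9 hold more CpG than the median. The core of the RBPJ motif, TGGGAA on either strand, occurs in 1 of the 12, a window of Maml2, and in 21.6% of all windows. Its absence from the other windows says only that these letters are not in these 250 bases.

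Jag2 and Notch3 were the most abundant members per length. On the scale of CPM per kilobase of counted exons, Jag2 stood highest in all 4 groups, at 10.2 ± 0.498 in I53A, 10.9 ± 0.141 in WT of set 1, 8.37 ± 0.282 in the libraries labelled QKO and 11.6 ± 1.61 in WT of set 2 (mean ± SD, n = 3 each). Notch3 came next, at 6.97 ± 0.211, 9.23 ± 0.752, 6.91 ± 0.309 and 8.46 ± 1.06 CPM per kilobase in the same groups. Its range overlapped that of the gene below it, Maml1, in WT of set 2, and in the other groups it did not overlap the gene below it. Maml1, Notch1 and Notch2 followed in set 1, and the ranges of Notch1 and Notch2 overlapped in I53A, as did those of Notch1 and Maml1 and of Maml1 and Notch2 in WT. In set 2 Notch4 stood among them, at 6.19 ± 0.379 CPM per kilobase in the libraries labelled QKO and 4.51 ± 0.34 in WT, while in set 1 it stood at 1.53 ± 0.103 in I53A and 1.37 ± 0.031 in WT. Dll3, Dll1 and Maml2 were the 3 lowest in I53A, in WT of set 1 and in the libraries labelled QKO, and in the last of these groups the ranges of Dll1 and Dll3 overlapped. In WT of set 1 the range of Dll3 overlapped that of Notch4 above it. In WT of set 2 the 3 lowest were Jag1, Dll1 and Maml2, and the range of Jag1 (1.45 to 2.06) overlapped that of Dll3 above it (1.86 to 2.15).

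**Figure D1:**
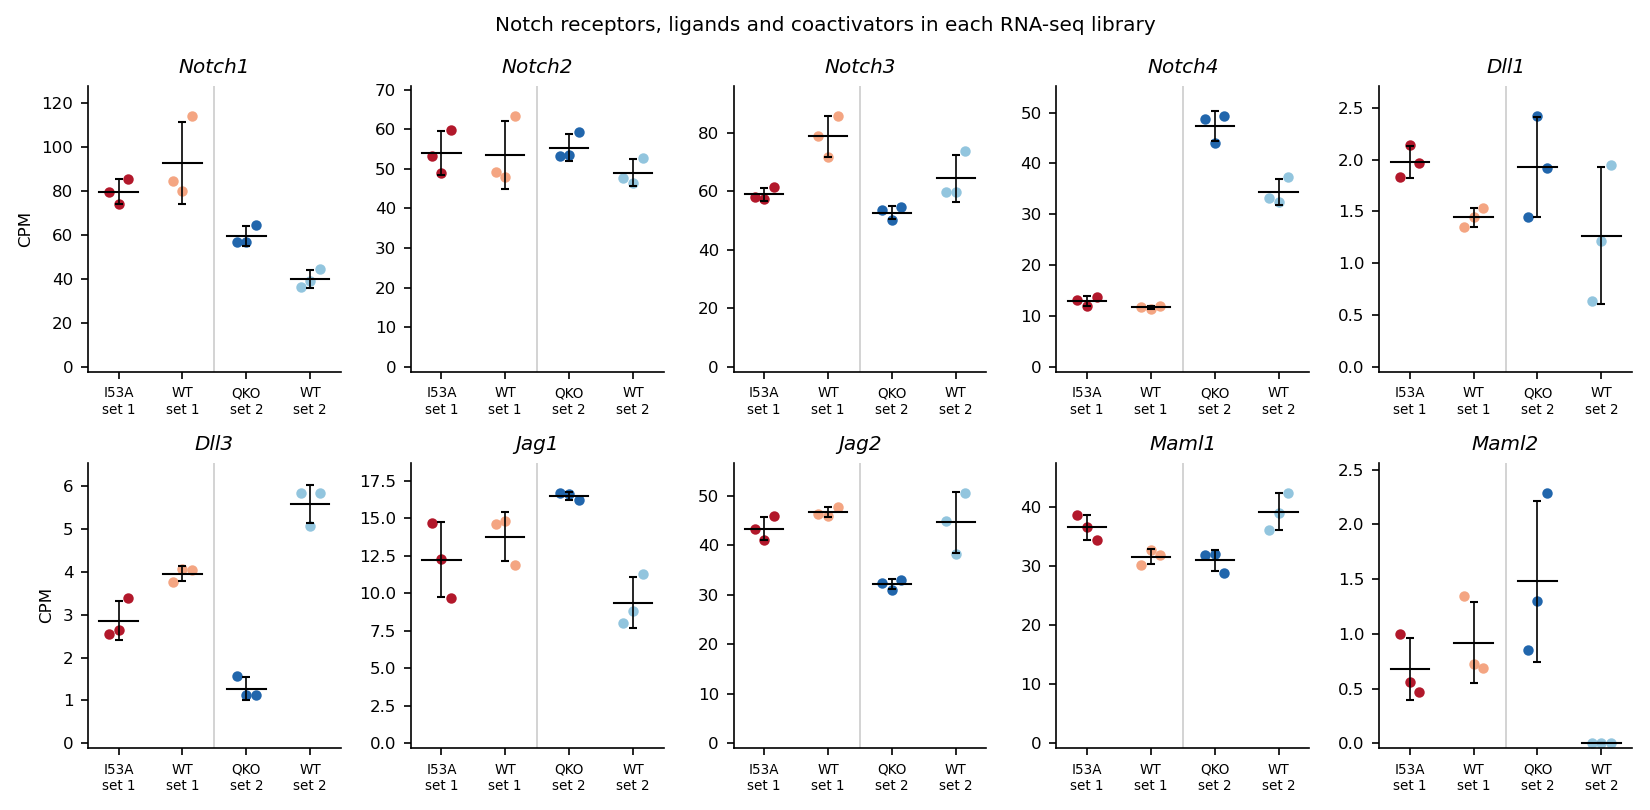
CPM of each member (linear axis from 0, scaled within each set) in each library, with I53A and WT of set 1 left of the grey line and QKO and WT of set 2 right of it. Points are libraries, long bars are means and error bars are SD over 3 libraries; Notch3 is lower in I53A than in WT with no overlap, and Maml2 is at 0 in all 3 WT libraries of set 2.

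Comparing I53A with WT asks what happens to these genes when the catalytic part of Ring1b is mutated, in libraries where Rnf2 RNA is lower as well. Of the 10 members, 1 was called at an adjusted p under 0.05: Notch3 was lower in I53A. Over all 15536 genes tested, 35.5% were called in this comparison, 18.1% higher and 17.4% lower, so 1 of 10 is below the share over all genes. The members' median log2 fold change was -0.14 beside 0 over all genes tested, and their median absolute change was 0.22 beside 0.32. For 6 of the 10 the CPM ranges of the groups did not overlap, beside 49.4% of all genes. With the replicate number as a block, 3 members were called, Notch1 and Maml1 in addition, beside 56.6% of all genes under the block.

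Among the receptors, Notch3, best known from vascular smooth muscle, had 58, 57.3 and 61.4 CPM in the I53A libraries and 79, 71.8 and 85.7 CPM in the WT libraries. Every I53A library lay below every WT library. The mean was 58.9 ± 2.17 CPM in I53A and 78.8 ± 6.99 CPM in WT (SD, n = 3 each), a log2 fold change of -0.42 ± 0.09 (SE, edgeR adjusted p = 0.0069), and the call held in all 13 alternatives, with log2 fold changes between -0.49 and -0.36. Notch1, the receptor central to T cell fate and somite formation, had 79.6, 74 and 85.5 CPM in I53A and 84.3, 79.9 and 114 CPM in WT. Its highest value was the third WT library, and the groups overlapped. Its log2 fold change was -0.22 with a 95% interval of -0.54 to 0.10 (edgeR adjusted p = 0.25), and with the replicate block it was -0.20 (adjusted p = 0.012). Without the third WT library it was -0.05 (adjusted p = 0.7), and with replicates 1 and 2 only -0.10 (adjusted p = 0.24). Notch2, a receptor with broad expression, had 53.1, 49 and 59.9 CPM in I53A and 49.1, 48 and 63.3 CPM in WT, with overlapping groups and a log2 fold change of 0.02 (interval -0.28 to 0.31, edgeR adjusted p = 0.94). Notch4, a receptor best known from endothelium, had 13.1, 11.9 and 13.8 CPM in I53A and 11.8, 11.3 and 11.9 CPM in WT. The lowest I53A library lay only just above the highest WT library, and the log2 fold change of 0.15 had an interval of -0.13 to 0.42 (edgeR adjusted p = 0.38).

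None of the 4 ligands passed the test in I53A. Jag2, a Jagged ligand that signals to neighbouring cells, had 43.3, 41.1 and 45.9 CPM in I53A and 46.4, 45.9 and 47.8 CPM in WT, a log2 fold change of -0.11 with an interval of -0.29 to 0.08 (edgeR adjusted p = 0.35). Jag1, the Jagged ligand mutated in human Alagille syndrome, had 14.7, 12.3 and 9.7 CPM in I53A and 14.6, 14.8 and 11.9 CPM in WT. Those groups overlapped, and in each the third library was the lowest; the log2 fold change was -0.17 with an interval of -0.57 to 0.23 (edgeR adjusted p = 0.50). The Delta-type genes were near the lower end of what was counted. Dll3, a divergent Delta known to act inside the cell and not as an activating ligand, had 46, 47 and 43 counts in I53A and 67, 73 and 53 counts in WT. In CPM its groups did not overlap, and the log2 fold change of -0.48 had an interval of -0.94 to -0.01 (edgeR adjusted p = 0.10). Dll1, an activating ligand of somites and neural progenitors, had 33, 38 and 25 counts in I53A and 24, 26 and 20 counts in WT, a log2 fold change of 0.46 with an interval of -0.12 to 1.04 (edgeR adjusted p = 0.19).

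Of the coactivators, which bridge the Notch intracellular domain and RBPJ to the transcription machinery, Maml1 had 38.7, 36.7 and 34.4 CPM in I53A and 30.2, 32.8 and 31.9 CPM in WT. Each I53A library lay above each WT library. The log2 fold change of 0.21 (interval 0.01 to 0.42) did not pass in the fit without a block (edgeR adjusted p = 0.10), and it passed with the replicate block (0.21, adjusted p = 0.026), with all 12 libraries in the fit (0.23, adjusted p = 0.04) and with replicates 1 and 2 only (0.26, adjusted p = 0.02). Maml2 had 18, 10 and 6 counts in I53A and 24, 13 and 9 counts in WT, too few to tell the groups apart (log2 fold change -0.43, interval -1.45 to 0.59, edgeR adjusted p = 0.51).

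In set 2, 9 of the 10 members were called: Notch1, Notch2, Notch4, Jag1 and Maml2 were higher in the libraries labelled QKO, and Notch3, Dll3, Jag2 and Maml1 were lower. Among all 15439 genes tested in that comparison 57.7% were called, 28.7% higher and 29% lower, so calls were common throughout. Maml2 passed the filter on low counts only through the libraries labelled QKO, and without it 8 of 9 members were called. The members' median log2 fold change was 0.32 beside 0 over all genes tested (0.17 without Maml2), and their median absolute change, Maml2 included, was 0.51 beside 0.29. Groups did not overlap in CPM for 9 of the 10 members, beside 61.5% of all genes, and Maml2 is among the 9 through a WT group at 0. The third WT library had the highest WT value of 8 of the 10 members.

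Of the receptors in set 2, 3 were higher in the libraries labelled QKO and 1 was lower. Notch1 had 56.9, 56.6 and 64.7 CPM in QKO and 36.5, 39 and 44.6 CPM in WT. All 3 QKO libraries were above all WT libraries, and the log2 fold change was 0.56 ± 0.07 (edgeR adjusted p = 7e-10). Notch4 had 48.7, 44 and 49.3 CPM in QKO and 33.2, 32.5 and 37.3 CPM in WT, also without overlap, a log2 fold change of 0.46 ± 0.07 (edgeR adjusted p = 3.9e-08). Notch2 had 53.1, 53.6 and 59.2 CPM in QKO and 47.7, 46.5 and 52.8 CPM in WT. The gap between its groups was the lowest QKO library at 53.1 CPM over the third WT library at 52.8 CPM. Its log2 fold change of 0.17 ± 0.06 (edgeR adjusted p = 0.014) lost its call with all 12 libraries in the fit (adjusted p = 0.21), without the third QKO library (0.12, adjusted p = 0.15), without the first WT library (0.15, adjusted p = 0.06) and without the second WT library (0.13, adjusted p = 0.12). Notch3 had 53.5, 50.1 and 54.6 CPM in QKO and 59.6, 59.9 and 73.7 CPM in WT. Its QKO libraries all lay below its WT libraries, of which the third stood apart. The log2 fold change was -0.29 ± 0.07 (edgeR adjusted p = 0.00031), and without the third WT library it was -0.18 (adjusted p = 0.0055).

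The ligands moved in both directions in set 2. Dll3 had 37, 18 and 24 counts in the libraries labelled QKO and 101, 92 and 126 counts in WT. The mean was 1.27 ± 0.265 CPM in QKO and 5.59 ± 0.45 CPM in WT (SD, n = 3 each), the largest fall among the members, with a log2 fold change of -2.11 ± 0.21 (edgeR adjusted p = 1.9e-12). Jag1 had 16.7, 16.6 and 16.2 CPM in QKO and 8, 8.81 and 11.3 CPM in WT. Its QKO libraries agreed within less than 1 CPM and lay above all WT libraries, a log2 fold change of 0.80 ± 0.11 (edgeR adjusted p = 1.1e-08). Jag2 had 32.5, 31 and 33.1 CPM in QKO and 45, 38.3 and 50.7 CPM in WT, without overlap and with a log2 fold change of -0.47 ± 0.07 (edgeR adjusted p = 7.7e-07). Dll1 had 34, 39 and 41 counts in QKO and 11, 22 and 42 counts in WT. The third WT library reached the level of the QKO libraries, and the log2 fold change of 0.55 (interval -0.07 to 1.16) was not called (edgeR adjusted p = 0.13). Without that library it was 1.02 (adjusted p = 0.013).

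Both coactivators changed in set 2. Maml1 had 32, 32.1 and 28.9 CPM in the libraries labelled QKO and 36.2, 39 and 42.5 CPM in WT, with no overlap and a log2 fold change of -0.34 ± 0.07 (edgeR adjusted p = 3.8e-05). Maml2 had 20, 21 and 49 counts in QKO and 0, 0 and 0 counts in WT. Against a floor of 3 counts over the WT group, that is at least 28.1-fold higher in QKO, and the third QKO library holds 49 of the 90 counts. No p is given for it, since it entered the test through the group in which it was high. Its neighbour Mtmr2 on chromosome 9 (13552854 to 13610925) had 2148, 1461 and 1877 counts in QKO and 1549, 1622 and 1733 counts in WT, so the zeros do not extend to that gene.

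**Figure D2:**
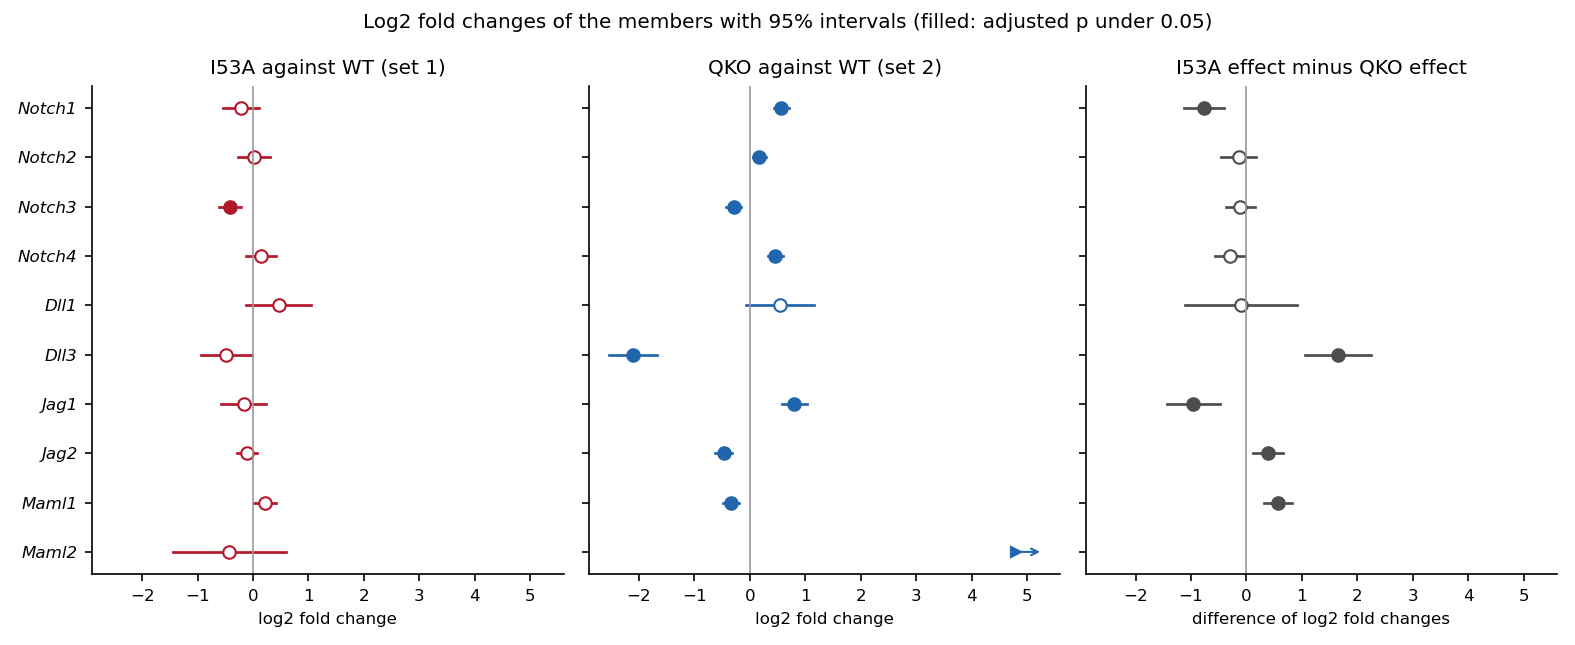
Log2 fold change of each member (x axis) for I53A against WT, for QKO against WT, and for the difference between both, with 95% intervals; filled points passed an adjusted p under 0.05. One point of the left panel is filled, Notch3 at -0.42; in the middle panel Dll3 stands at -2.11 and the arrow marks the lower bound for Maml2, which is not drawn in the right panel.

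Whether a member changed differently in I53A and in QKO was tested as the difference of the log2 fold changes, each against its own WT libraries, over all 12 libraries. Here 6 of the 10 members were called, and 5 of 9 without Maml2, beside 36.1% of the 16501 genes tested. Notch1, at -0.22 in I53A and 0.56 in QKO, differed by -0.76 ± 0.17 (edgeR adjusted p = 0.003), and Jag1, at -0.17 and 0.80, by -0.96 ± 0.22 (edgeR adjusted p = 0.0036). Dll3, at -0.48 and -2.11, differed by 1.65 ± 0.28 (edgeR adjusted p = 3e-04), and both of its estimates are below 0. Maml1, at 0.21 in I53A and -0.34 in QKO, differed by 0.57 ± 0.12 (edgeR adjusted p = 0.0016). Jag2 differed by 0.39 ± 0.13 (edgeR adjusted p = 0.027), a call lost when any 1 of 7 libraries was left out: the first or second WT library of set 1, any QKO library, or the first or the third WT library of set 2 (0.26 to 0.38, adjusted p = 0.05 to 0.1). Maml2 is counted among the 6, but its size and p are left out here because 1 of its groups is at 0. For Notch3, lower in both comparisons, the difference was -0.11 with an interval of -0.37 to 0.15 (edgeR adjusted p = 0.52). Notch2 differed by -0.14 (interval -0.45 to 0.17, edgeR adjusted p = 0.50) and Dll1 by -0.09 (interval -1.10 to 0.92, edgeR adjusted p = 0.91). Notch4 differed by -0.30 (interval -0.57 to -0.03, edgeR adjusted p = 0.078), and passed with the replicate block (adjusted p = 0.035), with replicates 1 and 2 of set 1 only (adjusted p = 0.047) and without the third WT library of set 2 (-0.38, adjusted p = 0.036).

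The make-up of the receptor transcripts was described as each gene's share of the summed receptor level in CPM per kilobase. Notch3 made up 37.3% ± 1.2 of it in I53A and 43% ± 2.15 in WT of set 1, and 30% ± 0.569 in the libraries labelled QKO and 40.5% ± 1.09 in WT of set 2 (SD, n = 3 each). Notch4 made up 8.17% ± 0.164 in I53A and 6.4% ± 0.664 in WT, and 26.9% ± 0.817 in QKO and 21.6% ± 0.511 in WT. Of the ligand transcripts Jag2 made up 75% ± 2.08 in I53A and 73.8% ± 1.6 in WT, and 68% ± 1.24 in QKO and 74% ± 1.53 in WT. Jag1 made up 24.3% ± 0.632 in QKO and 10.8% ± 1.26 in WT of set 2, and Dll3 3.78% ± 0.756 in QKO and 13.1% ± 1 in WT. The summed receptor level was 18.7 ± 1.11 CPM per kilobase in I53A and 21.5 ± 2.63 in WT, and 23.1 ± 1.23 in QKO and 20.9 ± 2.04 in WT. These shares restate the values above and were not tested.

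**Figure D3:**
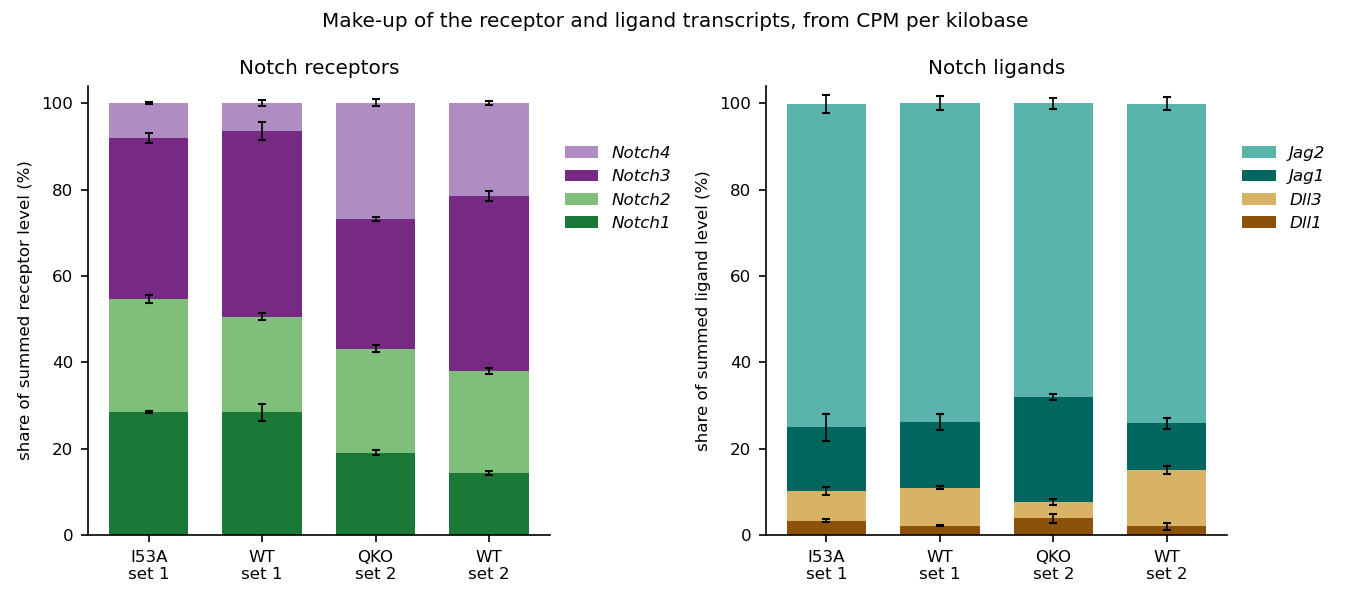
Share of each receptor (left) and ligand (right) in the summed level of its class, in CPM per kilobase, as stacked bars for the 4 groups; error bars are SD over 3 libraries. Jag2 fills most of every ligand bar, and the Jag1 part is 24.3% in QKO and 10.8% in WT of set 2.

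Genes with the pattern most like the leading member of each class were found as those with the smallest root-mean-square difference in log2(CPM + 1) over the 12 libraries, each library taken relative to the WT mean of its set. For Notch3 these were Mif4gd (0.062), Med12 (0.067) and Zcchc14 (0.069) of 7093 candidates of similar level. For Jag2 they were Flii (0.069), Abca2 (0.069) and Tmem134 (0.071), and for Maml1 they were Strn (0.046), Ndfip1 (0.068) and Dennd4c (0.072).

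The rest of the pathway was followed with 55 further genes in 6 role classes. In I53A, 9 of the 48 that could be tested were higher and 9 were lower, beside 18.1% and 17.4% of all genes, with a median log2 fold change of 0.06 beside 0. With the replicate block 17 were higher and 12 lower, beside 28.1% and 28.5% of all genes under the block. In the libraries labelled QKO, 12 of 47 were higher and 16 were lower, beside 28.7% and 29% of all genes, with a median of 0.01. Rbpj, the DNA-binding partner of the receptors' intracellular domains, was at 380 ± 16.7 CPM in I53A and 377 ± 16.5 CPM in WT (SD, n = 3 each), and between 292 and 318 CPM in the 6 libraries of set 2, with log2 fold changes of 0.01 ± 0.07 and 0.01 ± 0.04 (edgeR adjusted p = 0.92 and 0.78).

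Among the genes called in I53A, Dtx1, a Deltex regulator that is itself a Notch target, had the largest fall, to 8.85 ± 2.11 CPM in I53A against 23.8 ± 2.43 CPM in WT (log2 fold change -1.43 ± 0.19, edgeR adjusted p = 0.00072). Of the 8 targets listed, 5 could be tested, and Hes1, a transcriptional repressor, was lower too (23.2 ± 4.65 CPM in I53A and 31.5 ± 1.58 CPM in WT, edgeR adjusted p = 0.04), while Hey2 was higher (2.43 ± 0.373 CPM in I53A and 1.24 ± 0.386 CPM in WT, edgeR adjusted p = 0.042). Kat2b, an acetyltransferase that works with the Notch complex, fell by 0.93 on the log2 scale (edgeR adjusted p = 8.7e-05), the only one of 14 nuclear factors called. Of the proteases, Psen2, a catalytic subunit of gamma-secretase, fell by 0.89, and Adam10, which makes the first ligand-induced cleavage, was higher by 0.52 (edgeR adjusted p = 0.00095 and 0.0016), as was Furin, which cleaves the receptor on its way to the surface (0.44, edgeR adjusted p = 0.046). The glycosyltransferases Poglut1 and Pofut1, which place glucose and fucose on the receptors, moved in opposite directions (-0.40 and 0.33, edgeR adjusted p = 0.0018 and 0.013). Dtx3 and Neurl1b were lower (-0.78 and -0.85, edgeR adjusted p = 0.001 and 0.045) and Neurl3 was higher (1.72, edgeR adjusted p = 0.019). The ligand-like gene Dlk1 and the remaining Mastermind gene Maml3 were higher (2.37 and 1.6, edgeR adjusted p = 0.011 and 0.02), at means of 1.79 and 2.88 CPM in I53A.

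Leaving out 1 library at a time kept the calls of Dtx1, Kat2b, Psen2, Adam10, Poglut1 and Dtx3 in I53A, 6 of the 14 genes named. Neurl1b lost its call without any 1 of the 6 libraries (adjusted p = 0.079 to 0.14), and also with the replicate block (0.058), with DESeq2 (0.094), with no filter on low counts (0.11) and with replicates 1 and 2 only (0.087). Furin and Hey2 lost theirs without any 1 except the third WT library (0.052 to 0.15 and 0.067 to 0.13), Hey2 with no filter on low counts as well (0.056), and Hes1 without any 1 except the third I53A library (0.068 to 0.15). Neurl3 lost its call without the first or second I53A or the second WT library (0.053 to 0.088), Pofut1 without the first I53A or second WT library (0.055 and 0.062), and Dlk1 and Maml3 without the first I53A library (0.059 and 0.06) or the first WT library (0.053 and 0.079). All of these are adjusted p-values, of edgeR's test except where DESeq2 is named. The number of further pathway genes called higher was 3 without the first I53A library, and 5 without the second I53A, the first WT or the second WT library.

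In set 2, Maml3 was the called pathway gene with the largest rise, at 1.73 ± 0.284 CPM in the libraries labelled QKO and 0.436 ± 0.0289 CPM in WT (log2 fold change 1.97 ± 0.36, edgeR adjusted p = 6e-06). Among the targets Dtx1, Nrarp, a feedback inhibitor of Notch, and Hes1 were lower (-0.43, -0.46 and -0.19, edgeR adjusted p = 0.00021, 0.0011 and 0.028). Only 4 of the 8 targets listed could be tested, and 3 of these 4 were lower, beside 29% of all genes. The other tested target, Hey1, was not called (0.24, edgeR adjusted p = 0.35). The Hes1 call was lost without the first or the third QKO or the second or the third WT library (adjusted p = 0.089 to 0.21), with DESeq2 (0.087) and with all 12 libraries in the fit (0.22). Kat2a, Kat2b and the corepressor Tle3 were lower (-0.59, -0.37 and -0.34, edgeR adjusted p = 8.7e-15, 4.9e-08 and 2e-08), and the Tle3 call was lost with all 12 libraries in the fit (adjusted p = 0.071). These 3 had the largest changes of their class and do not give its direction. Of the 14 nuclear factors tested in set 2, 5 were called higher and 5 lower, beside 28.7% and 29% of all genes. Of the proteases, Furin was lower, at 16.2 ± 2.11 CPM in QKO and 30.3 ± 4.38 CPM in WT (-0.90 ± 0.10, edgeR adjusted p = 6.8e-10), and so was the gamma-secretase subunit Aph1b (-0.77, edgeR adjusted p = 0.015, lost without the second QKO or second WT library at 0.059 and 0.072). Numbl, related to the Notch inhibitor Numb, and Dtx3 were lower (-0.66 and -0.61, edgeR adjusted p = 7.4e-09 and 4.6e-11), and Mib2, a ubiquitin ligase for ligands, and Pofut1 were higher (0.37 and 0.23, edgeR adjusted p = 9.7e-07 and 0.0038). Furin thus had opposite signs in I53A and in QKO, and the difference of 1.36 ± 0.20 passed the test (edgeR adjusted p = 8.4e-05). For Dtx1 the difference was -0.99 ± 0.21 (edgeR adjusted p = 0.0021) and for Psen2 -0.91 ± 0.18 (edgeR adjusted p = 0.0013).

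**Figure D4:**
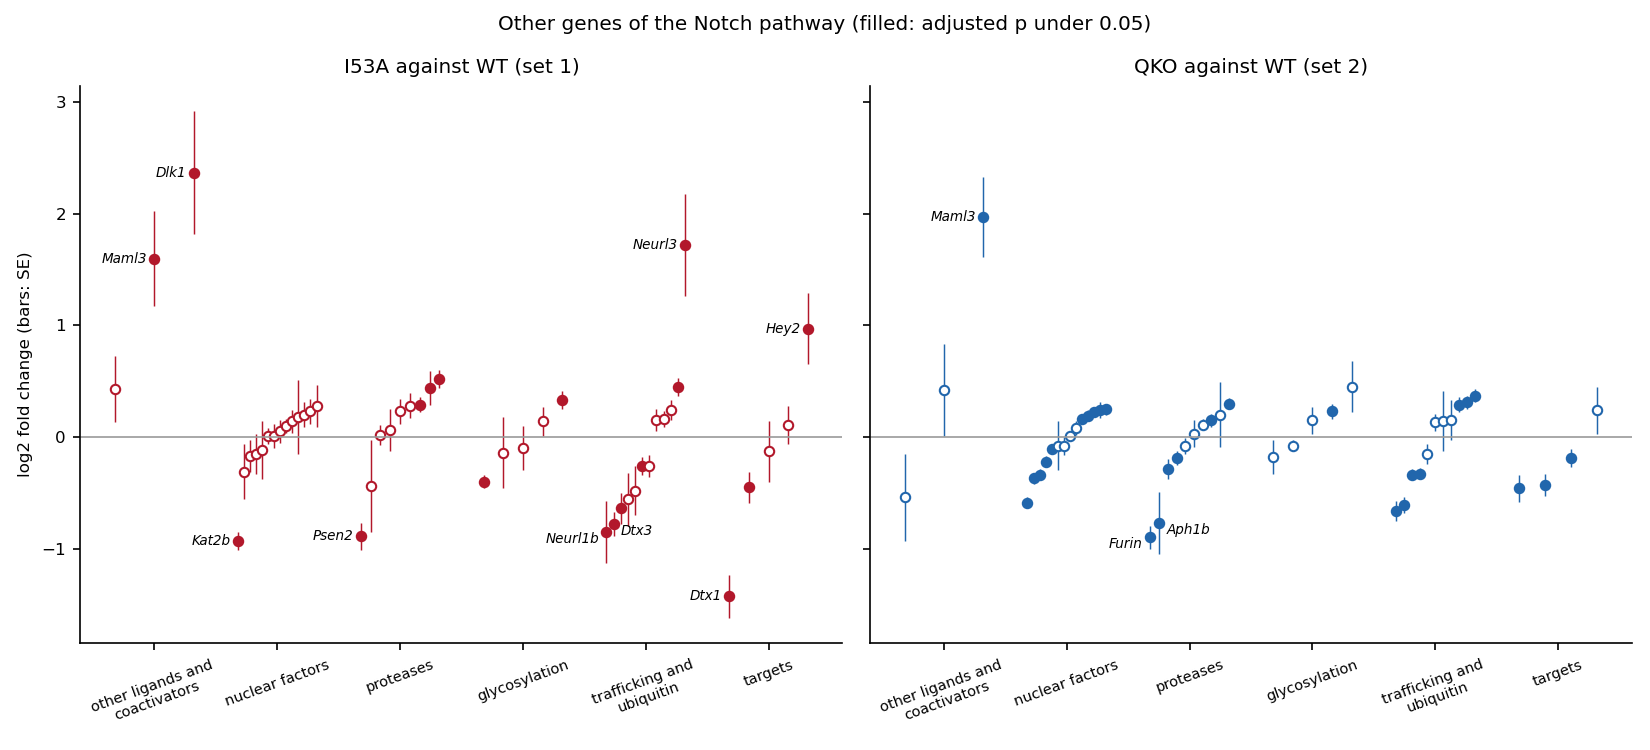
Log2 fold change (y axis, bars are SE) of the tested genes of the other pathway classes, for I53A against WT (left) and QKO against WT (right); filled points passed an adjusted p under 0.05 and called genes beyond 0.7 are named. Nuclear factors lie close to 0 in I53A with 1 filled point, Kat2b, and Maml3 stands above 1.5 in both panels.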

How the data were processed

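The files as deposited hold raw counts, 1 table for each library, in whole numbers per gene. Per the file headers, counting was done with featureCounts 1.6.3 by gene name on a GENCODE annotation of mm9, with no option for strand. Per the submitters' processing notes, HISAT2, Bowtie2, SAMtools and DESeq2 were used, without versions. The alignments counted for set 1 and set 2 were not named alike. Names in set 1 include the words TopHat and unique, and the processing notes do not list TopHat. Beyond these names, the sources used here do not say which aligner or read filter was used for each set. Levels are therefore tested only within a set.

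From the deposited counts, CPM with TMM scaling over the 6 libraries of a set, and log2 fold changes, were computed with edgeR 4.0.16 in R 4.3.3. CPM per kilobase, and levels of both sets side by side, used scaling over all 12 libraries and the exon length of the file. Genes passing filterByExpr were tested with the quasi-likelihood test, two-sided, with Benjamini-Hochberg adjustment over all genes tested and a threshold of 0.05. The fits were run on simulated counts with known changes, as a check of the code. Those counts had the same dispersion for all genes, no difference between replicates and no changed genes at low counts, unlike the real libraries. DESeq2 1.42.0, RLE scaling, other filters, a block, all 12 libraries in 1 fit and single libraries left out were the alternatives. Intervals are 95% and cover single genes without adjustment. Counts carry no molecular identifiers, so floors cover counting error only.

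The chi-square over degrees of freedom between replicates of 1 group was 2.25 to 29.7, above sampling noise. Pairs with the third library of a group of set 1 were at 23 to 29.7, and all other pairs at 4.66 or less. Each library was taken as 1 unit, and these values do not show whether libraries are separate cultures. Replicate numbers are shared between groups in the labels. In set 1 the deviations of same-numbered libraries from their group means correlated at 0.35, 0.4 and 0.62, above the threshold of 0.1 set for pairing. This is a check from the data, as the labels do not say what the numbers mean. The main fits held no block, so their p-values and intervals leave this shared deviation out, and the fit with the replicate block is given as an alternative. Libraries 1 and 2 of set 1 correlated across numbers at 0.34 and 0.31, and the third libraries come from tables named in another style, a possible batch. Pairs by number are therefore not shown apart from a split of the third libraries from the others.

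All 10 members are named. Of the other pathway genes, up to 3 called genes per class and comparison are named, by absolute log2 fold change, except for a result that is not reported here. Members, lists and rules were chosen with earlier results of these data known. Promoters are from RefSeq tables of GRCm38.p6, matched by symbol. Chromatin assays of the same series were not used here.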

Additional observations from a re-analysis of the deposited data

Results flagged for a closer look

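The effects of I53A and of the libraries labelled QKO, each against their own WT libraries, differed by edgeR's interaction test for 6 of the 10 members, and 5 of 9 without Maml2, beside 36.1% of all genes tested. The adjusted p was 0.003 for Notch1, 3e-04 for Dll3, 0.0036 for Jag1, 0.027 for Jag2 and 0.0016 for Maml1. The value for Maml2 was 0.00022, and it rests on a group at 0 counts, so nothing is read from it. Notch1 and Jag1 were higher in QKO, Maml1, Jag2 and Dll3 were lower in QKO, and none of these 5 was called over the 6 libraries of set 1 without the replicate block. With the block, Notch1 was lower (-0.20, adjusted p = 0.012) and Maml1 higher (0.21, adjusted p = 0.026) in I53A. Maml2 was at 0 in the WT libraries of set 2 alone. The sets also differ in their WT libraries and in how their alignments were named, which cannot be told apart from the mutation in this contrast.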

How the results depend on the processing

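Of 428 recomputed member values, 404 kept their direction and their side of the threshold, 11 lost a call, 8 gained one and 5 turned direction. The 5 were uncalled values close to 0: Notch2 in I53A (-0.06 to 0.15 over the libraries left out) at -0.06 without the third I53A library, -0.04 without the first WT library and -0.06 without the second WT library, and the difference for Dll1 (-0.58 to 0.2) at 0.08 without the second QKO library and 0.2 without the first WT library of set 2. The replicate block in set 1 called 4371 genes higher and 4427 lower, against 2808 and 2704 without it, with 3 members and 17 further pathway genes higher. In set 2, where same-numbered libraries correlated at 0.03, -0.01 and 0.08, the block called 4517 genes higher, 4563 lower and 9 members. With all 12 libraries in the fit, 2 members were called in I53A. Replicates 1 and 2 of set 1 alone gave 4197 higher genes (26.7%) and 4143 lower (26.4%), 2 members, and 19 further pathway genes higher and 10 lower, and the cause was not tested. Leaving out 1 library at a time gave 1996 to 3034 higher and 1832 to 2883 lower genes in I53A with 1 member each time, 3994 to 4303 and 4077 to 4459 in QKO with 8 to 10 members, and 2396 to 3299 and 2681 to 3274 for the difference with 5 to 6 members. For the further pathway genes it gave 3 to 11 higher and 6 to 7 lower in I53A, and 11 to 14 higher and 13 to 16 lower in QKO. Scaling within a set moved the members' summed level to 303.3 CPM in I53A and 299.2 CPM in QKO, against 288.8 and 315.4 CPM over all 12 libraries. The WT libraries were rescaled as well, so these shifts are not changes against WT. Notch1 in the first WT library moved to 84.3 CPM from 79.6 in set 1, and to 36.5 CPM from 38.5 in set 2. Maml2 could not be fitted within a set under a filter of 1 CPM in 3 libraries. Depth limits Dll1, Dll3 and Maml2, each under 130 counts in every library.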

Other observations

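The WT libraries of the sets differed in several members, on the scale of CPM over all 12 libraries. Notch4 stood at 34.5 to 39.5 CPM in WT of set 2 and at 10.7 to 11.2 CPM in WT of set 1, and Notch1 at 38.5 to 47.2 CPM in WT of set 2 and 75.7 to 107 CPM in WT of set 1. Maml2 had no count in WT of set 2 and 46 counts over the 3 WT libraries of set 1. Other genes of the pathway differed far more: Hdac1 stood at 218 to 241 CPM in WT of set 2 and 5.25 to 10.7 CPM in WT of set 1, and Psenen, a gamma-secretase subunit, at 20.7 to 22.3 CPM and 0.053 to 0.428 CPM in the same groups. The part of counting or alignment in these differences was not tested. These genes were chosen after their values were seen.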
